A study of Mus musculus with 48 samples.

Results

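The Toll-like receptors Tlr1 to Tlr9 and their inhibitor Sigirr were followed in the blood and the medial prefrontal cortex (mPFC) of the same 24 mice. Members were these 10 of the 34844 gene names on the array, read by every probe that the files name after one of them, 14 of 55681 probes. The mice were female C57BL/6J animals, 17 weeks old, in 4 groups of 6. Control mice were sham-operated and not stressed, CUMS mice were sham-operated and went through chronic ultra-mild stress (CUMS), OVX mice were ovariectomized and not stressed, and OVX+CUMS mice had both treatments. Each mouse gave 1 array of mPFC and 1 of the cell pellet of its heparinised blood, and the labels name the same individual for both.

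Toll-like receptors are the sensors by which innate immune cells recognise microbial material. Tlr2 pairs with Tlr1 or Tlr6 to bind bacterial lipopeptides, Tlr4 responds to lipopolysaccharide and Tlr5 to flagellin, all at the cell surface. Tlr3, Tlr7, Tlr8 and Tlr9 sit in endosomes and sense nucleic acids, Tlr9 being the receptor for CpG DNA. Most of them pass their signal through the adaptor Myd88 to NF-kappaB. Sigirr is an orphan member of the interleukin-1 receptor family that dampens signalling from Toll-like and interleukin-1 receptors. In blood, Toll-like receptors are known from neutrophils, monocytes and B cells, and in the brain mainly from microglia.

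A level here is the log2 signal of a probe minus the 75th percentile of its array, so that 0 marks the 75th percentile of that array and 1 unit is a doubling of signal. A probe counted as detected in a tissue when it stood above background on all 24 arrays of that tissue and exceeded a signal of 50 on at least 2. In blood 9 of the 14 member probes were detected, for 8 genes: Tlr1, Tlr2, Tlr5, Tlr6, Tlr7 (2 probes), Tlr8, Tlr9 and Sigirr. In mPFC 6 were detected, for 5 genes: Tlr2, Tlr3, Tlr7 (the same 2 probes), Tlr9 and Sigirr. The 4 probes detected in neither tissue were both Tlr4 probes, the third Tlr7 probe and the second Tlr8 probe. The Tlr4 probe A_66_P124806 stood well above background on 5 or 6 of the 6 arrays of every group in blood and in mPFC, and A_55_P2076390 on none. A probe not detected in a tissue was left out of the tests between the groups of that tissue, and its levels are given as values only.

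The sequences that matter for reading these data are those of the probes themselves. Positions are those of the files on the mouse build mm9 (NCBI37), every probe shown is on the minus strand except that of Tlr9, and each line gives bases 1 to 30 of a 60-base probe. Capitals mark the run CTCTCTCTCT, which only 1 member probe held.
Sigirr A_51_P145520, chr7:148277090-148277149: ttgcctctatccctgggcccctcaggaaag
Tlr9 A_51_P432563, chr9:106128979-106129038: ctggttcccgagttgctctgcctgccttgc
Tlr8 A_55_P1996271, chrX:163680626-163680685: tgatgggaagtcacgactctgccatcataa
Tlr8 A_55_P1996266, chrX:163683356-163683415: acagttttactgctggaagacaaccagtta
Tlr7 A_55_P2129047, chrX:163743146-163743205: cataaatgaaggtctgaatttttcctaaca
Tlr7 A_55_P2050932, chrX:163742863-163742922: tCTCTCTCTCTgatactgaactgtaccaga
Both detected Tlr7 probes were assigned by the files to the same RefSeq transcript and lie 224 bases apart from the end of one to the start of the other. Whether a probe lies in an exon, intron or UTR was not analysed here, because no annotation of the files' build was used.

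The arrays differed in ways that touch the results. The 75th percentile signal ran from 54.9 to 191.5 in blood and from 572 to 689 in mPFC, and no spot was saturated. Each tissue was hybridized on 3 slides of 8 arrays, with 1 scan time per slide. Slide 1 held all control mice with 2 CUMS mice, slide 2 held 4 CUMS and 4 OVX mice, and slide 3 held 2 OVX mice with all OVX+CUMS mice. Control and OVX+CUMS mice therefore never shared a slide. Values with the slide as a block are given for the effects it changed on members and named pathway genes, and not for marker lists. The blood array of CUMS mouse 2 was the dimmest, and blood of OVX+CUMS mouse 5 had a neutrophil list score of 3.04, with the rest of its group between -0.50 and -0.22. A list score is the mean over the detected genes of a list of each gene's level minus its mean over the tissue's arrays. The defining markers of each labelled tissue were detected, with 8 of 8 B cell, T cell, NK cell, erythroid and platelet markers and 11 of 12 neutrophil markers detected in blood, and 8 of 8 neuron and astrocyte and 10 of 10 microglia markers in mPFC. Some markers of the other tissue were detected too, 3 of 8 neuron and 2 of 8 astrocyte markers in blood, and 6 of 8 erythroid, 5 of 8 platelet and 5 of 12 neutrophil markers in mPFC. In such bulk samples fewer cells of a type and less RNA per cell cannot be told apart.

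Sigirr was lower in the blood of stressed mice. Its blood level in control mice was 1.87 at the lowest, 1.97 at the median and 2.30 at the highest. The same 3 values were 1.39, 1.67 and 2.12 after CUMS, 2.17, 2.25 and 2.45 after OVX, and 1.09, 1.72 and 1.94 after both. All 6 OVX+CUMS mice lay below all 6 OVX mice, where 12.9% of the 20767 probes detected in blood did not overlap in either direction, while control and CUMS mice overlapped. The lowest value of all, 1.09, belonged to OVX+CUMS mouse 5.

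The CUMS effect on Sigirr, the mean of the stressed minus that of the unstressed groups, was -0.50 ± 0.09 (SE, adjusted p = 0.00097 by limma over all probes detected in blood), a 1.41-fold lower signal. It was -0.52 ± 0.13 with the slide as a block (adjusted p = 0.0096). Within slide 1 the CUMS minus control difference was -0.48 ± 0.18 and within slide 3 the OVX+CUMS minus OVX difference was -0.55 ± 0.20. Neither passed the threshold (adjusted p = 0.16 and 0.11). Within slide 2 the CUMS minus OVX difference was -0.58 ± 0.15 (adjusted p = 0.014). These groups differ in both treatments, so that difference is not the CUMS effect alone. Without CUMS mouse 2 and OVX+CUMS mouse 5 the CUMS effect on Sigirr was -0.42 (adjusted p = 0.0015). The OVX effect on Sigirr in blood was 0.10 ± 0.09 (adjusted p = 0.35) and the interaction was -0.30 ± 0.18 (adjusted p = 0.44), neither past the threshold. When arrays were aligned on their spike-in probes instead, the OVX effect on Sigirr was 0.44 and passed (adjusted p = 0.012).

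Sigirr is one of the candidates of the study. In these mice the study required a change against control in OVX+CUMS mice but in neither single treatment. It then matched such genes to those that changed with depressive state in patients. By RT-qPCR in the patients, the paper reports no state-dependent change for SIGIRR. The CUMS effect above uses the same arrays. Independent evidence of direction is therefore given neither by it nor by the contrast of OVX+CUMS with control mice. Here the difference was -0.40 ± 0.13 (adjusted p = 0.068 by limma), which missed the threshold, as did all 9 member probes (6.26% of all probes passed, and 1 member at an unadjusted p under 0.05). It was -0.29 (adjusted p = 0.10) without CUMS mouse 2 and OVX+CUMS mouse 5, and its adjusted p fell to 0.044 without CUMS mouse 2, 0.040 without CUMS mouse 4 and 0.046 without OVX+CUMS mouse 3. With the slide as a block it was -0.45 ± 0.30 (adjusted p = 0.70).

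**Figure D1:**
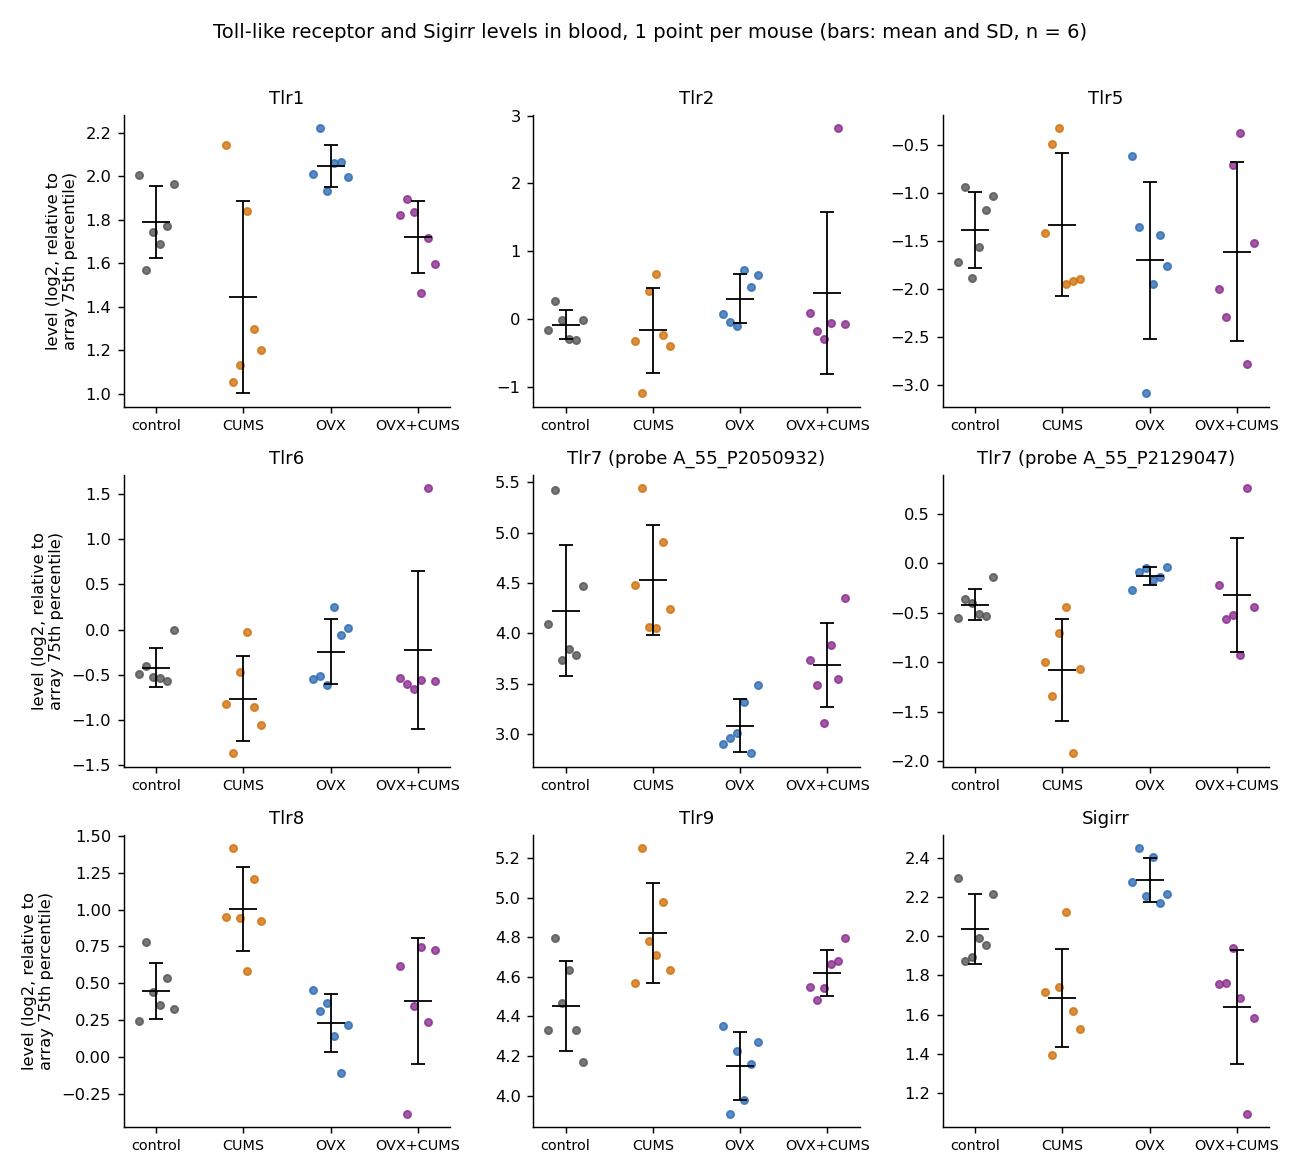
Levels in blood of the 9 detected member probes (y axis, log2 relative to the 75th percentile of the array, with its own scale in each panel) for each mouse of the 4 groups, with the mean and SD of 6 mice. Sigirr lies between 2.17 and 2.45 in OVX mice and between 1.09 and 1.94 in OVX+CUMS mice, and the 2 detected Tlr7 probes order the groups differently.

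Among the member probes in blood, 6 of 9 passed the test for the CUMS effect, 3 higher and 3 lower, where 48.5% of all probes tested passed. The median CUMS effect over the 9 was 0.00, against -0.03 over all probes. For the OVX effect 5 of 9 passed, 2 higher and 3 lower, where 55.1% of all probes passed, with a median of 0.10 against 0.04. No member passed for the interaction, where 1.42% of probes did, and none had an unadjusted p under 0.05. With the slide as a block 4 of the 9 passed for CUMS, where 49.7% of probes did, and none for OVX, where no probe did. These shares are near the background, so the counts say nothing particular about the family.

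Tlr9, the CpG DNA receptor, was higher in the blood of stressed mice. Its level was 4.17 at the lowest, 4.40 at the median and 4.79 at the highest in control mice, and 4.57, 4.75 and 5.25 in CUMS mice. In OVX mice it was 3.91, 4.19 and 4.35, and in OVX+CUMS mice 4.48, 4.61 and 4.80. All OVX+CUMS mice lay above all OVX mice, while control and CUMS mice overlapped. Over all blood probes 12.9% did not overlap between OVX+CUMS and OVX mice, in either direction. For Tlr9 the CUMS effect was 0.42 ± 0.09 (adjusted p = 0.0015), and 0.43 ± 0.12 with the slide as a block (adjusted p = 0.012). Its OVX effect was -0.25 ± 0.09 (adjusted p = 0.017), but -0.23 ± 0.19 with the slide as a block (adjusted p = 0.87) and 0.09 when arrays were aligned on their spike-in probes.

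Tlr8, the neighbour of Tlr7 on the X chromosome and a sensor of RNA, had, like Tlr9, its highest group median in CUMS mice and its lowest in OVX mice, at its detected probe A_55_P1996271. Control mice ran from 0.24 through a median of 0.40 to 0.78, and CUMS mice from 0.58 through 0.95 to 1.42. OVX mice ran from -0.11 through 0.26 to 0.46, and OVX+CUMS mice from -0.38 through 0.48 to 0.75. Each treated group overlapped control mice. Stress changed Tlr8 by 0.35 ± 0.12 (adjusted p = 0.017), and 0.53 ± 0.16 with the slide as a block (adjusted p = 0.015). The OVX effect was -0.42 ± 0.12 (adjusted p = 0.0053), and -0.07 ± 0.26 with the slide as a block (adjusted p = 0.98).

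The second Tlr8 probe, A_55_P1996266, was dim. It stood well above background in blood on none of the 6 control arrays, 1 CUMS, 3 OVX and 5 OVX+CUMS arrays. The OVX+CUMS mean of -2.83 was at least 1.55-fold higher than the background limit of the control arrays, where the detected Tlr8 probe had an OVX+CUMS minus control difference of -0.07 ± 0.17 (adjusted p = 0.87). For OVX and CUMS mice no lower bound above 1 could be given at this Tlr8 probe.

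Aligning the blood arrays on their spike-in probes moved the median CUMS effect of all probes to -0.32 and the median OVX effect to 0.39. On that scale the CUMS effects of Tlr8 (0.07, adjusted p = 0.71) and Tlr9 (0.13, adjusted p = 0.36) no longer passed, so these calls depended on the scale. The CUMS effect on Sigirr was then -0.79 (adjusted p = 0.0099), and all 3 member probes that passed were lower (Sigirr, Tlr1 and Tlr7 probe A_55_P2129047), in place of 3 higher and 3 lower, where 44.3% of all probes passed. For the OVX effect 6 of the 9 then passed, 5 higher (Sigirr among them) and 1 lower, where 57.3% of all probes passed.

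**Figure D2:**
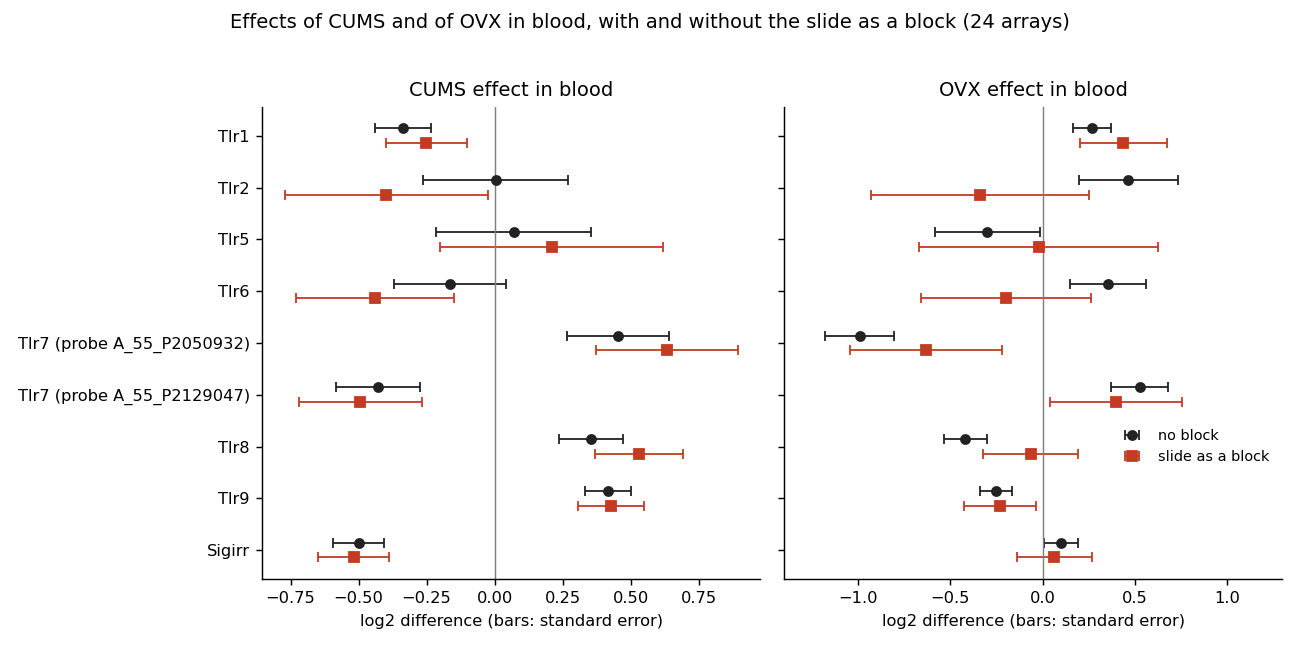
CUMS effect (left) and OVX effect (right) in blood of the 9 detected member probes, as log2 differences with standard errors (x axis), without a block and with the slide as a block. The CUMS effects on Sigirr, Tlr8 and Tlr9 keep their sign and their side of the threshold with the block, whereas none of the 9 OVX effects passes with it.

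Tlr1, which forms lipopeptide receptors with Tlr2, moved opposite to Tlr9. Its level was 1.57, 1.76 and 2.00 in control mice (lowest, median and highest) and 1.05, 1.25 and 2.14 in CUMS mice. In OVX mice it was 1.93, 2.03 and 2.22, and in OVX+CUMS mice 1.46, 1.77 and 1.89. OVX and OVX+CUMS mice thus did not overlap, as was so for 12.9% of all blood probes in either direction. CUMS changed Tlr1 by -0.34 ± 0.10 (adjusted p = 0.013), and -0.25 ± 0.15 with the slide as a block (adjusted p = 0.15). The OVX effect was 0.27 ± 0.10 (adjusted p = 0.034), 0.44 ± 0.24 with the slide as a block (adjusted p = 0.80), and 0.23 (adjusted p = 0.074) without CUMS mouse 2 and OVX+CUMS mouse 5. Leaving out 1 mouse ended this OVX call in 10 of 24 fits, those without CUMS mouse 2, 3, 5 or 6, OVX mouse 2, OVX+CUMS mouse 1, 2 or 3, or control mouse 2 or 4.

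Tlr2 and Tlr6, the other lipopeptide receptors, varied together between mice, and with all blood arrays on the 75th percentile scale they passed no test between groups. Tlr2 ran from -0.30 to 0.27 in control mice, from -1.09 to 0.67 in CUMS mice, from -0.10 to 0.73 in OVX mice and from -0.29 to 2.82 in OVX+CUMS mice. Tlr6 ran from -0.57 to -0.00 in control mice, from -1.37 to -0.02 in CUMS, from -0.61 to 0.25 in OVX and from -0.65 to 1.57 in OVX+CUMS mice. Both maxima belonged to OVX+CUMS mouse 5, the mouse with the high neutrophil list. Its Tlr2 level of 2.82 compared with at most 0.09 in the other OVX+CUMS mice, and its Tlr6 level of 1.57 with at most -0.54. The CUMS effects were 0.00 ± 0.27 for Tlr2 and -0.16 ± 0.21 for Tlr6 (adjusted p = 0.99 and 0.51), and the OVX effects 0.46 ± 0.27 and 0.36 ± 0.21 (adjusted p = 0.14 for both), with the sign turned by the slide block (-0.34 ± 0.59 and -0.20 ± 0.46). Without OVX+CUMS mouse 5 the CUMS effect on Tlr6 was -0.34 ± 0.13 and passed (adjusted p = 0.033), and without CUMS mouse 2 as well it was -0.28 ± 0.12 (adjusted p = 0.061). With arrays aligned on their spike-in probes the OVX effects on Tlr2 and Tlr6 were 0.81 ± 0.30 and 0.70 ± 0.25 and passed (adjusted p = 0.024 and 0.022).

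Over the 24 blood arrays, after the mean of each group was subtracted, Tlr2 and Tlr6 correlated at r = 0.97, and at 0.93 without OVX+CUMS mouse 5. The points share array and blood cell makeup, and the value is a description. The gene most like Tlr2 by this measure was Rab32 (r = 0.99), followed by Nadk and Mocos (both 0.99). Rab32 was also the gene most like Tlr6 (r = 0.97). Genes like Sigirr included Mutyh (0.93) and Tecpr1 (0.92), and Tlr1 was most like Snrnp200, Rdx and Ddx5 (0.92 each). Tlr9 was most like Pstpip2 (0.91), Gm12657 (0.89) and Gfra4 (0.87), and Tlr8 most like A930017K11Rik (0.91), Amotl1 (0.88) and Cdhr3 (0.87). The dim Tlr4 probe A_66_P124806 also had its highest blood level, -0.32, in OVX+CUMS mouse 5, where the median of the group was -2.38.

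**Figure D3:**
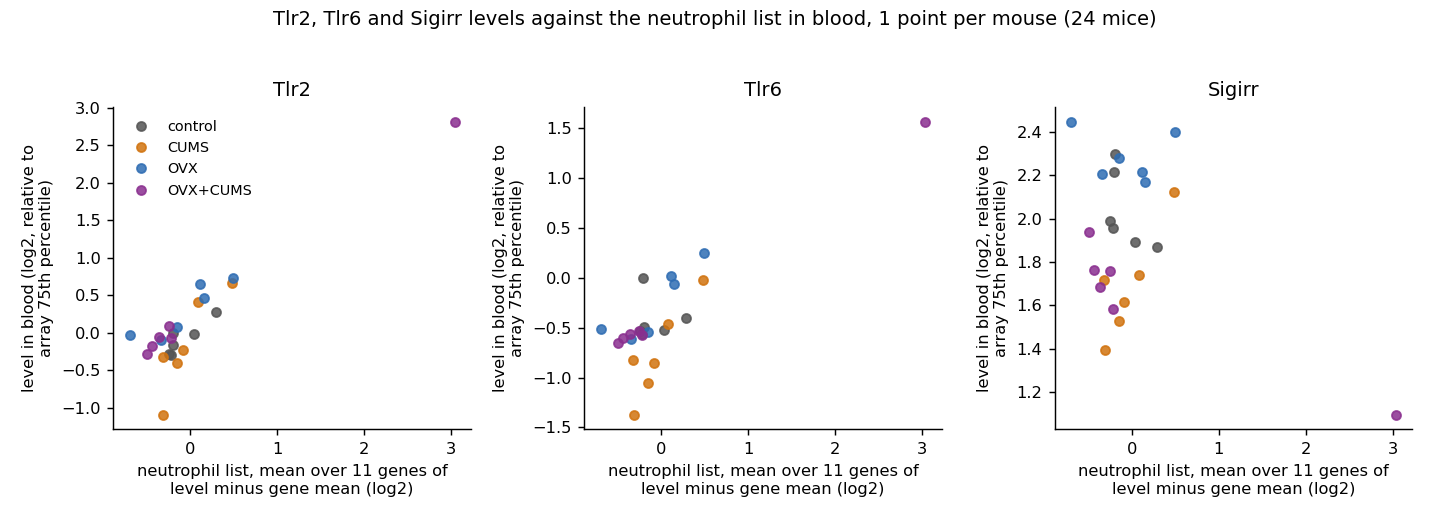
Levels in blood of Tlr2, Tlr6 and Sigirr (y axis, log2 relative to the 75th percentile of the array) against the neutrophil list score (x axis, mean over 11 genes of the log2 level minus the gene's mean) for each of the 24 mice. OVX+CUMS mouse 5 stands alone at a score of 3.04, with the highest Tlr2 (2.82) and Tlr6 (1.57) levels and the lowest Sigirr level (1.09).

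Tlr5, the flagellin receptor, was spread widely in every group in blood, from -1.89 to -0.93 in control mice and from -3.09 to -0.61 in OVX mice. Its CUMS effect was 0.07 ± 0.28 (adjusted p = 0.85) and its OVX effect -0.30 ± 0.28 (adjusted p = 0.37). With these standard errors differences of the size seen for Sigirr could have been missed for Tlr5.

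The markers of blood cell types moved with the same treatments, and their part in the results was not tested. Of the 8 B cell markers 7 fell and none rose with CUMS, where 29.4% of all probes fell and 19.1% rose. With OVX 5 of them rose and none fell, where 27.4% of all probes rose and 27.7% fell. The B cell list score ran from -0.27 to 0.13 in control, from -0.81 to -0.06 in CUMS, from 0.36 to 0.50 in OVX and from -0.87 to 0.30 in OVX+CUMS mice. With CUMS 4 of 8 T cell and 4 of 8 NK cell markers fell, and 5 of 8 erythroid markers rose. With OVX 6 of 8 erythroid, 3 of 8 NK cell, 2 of 8 T cell and 2 of 8 platelet markers fell, and 1 NK cell marker rose. The erythroid list score ran from -0.35 to 0.65 in control, from 0.18 to 1.01 in CUMS, from -0.74 to 0.12 in OVX and from -0.29 to 0.39 in OVX+CUMS mice. Of the 11 detected neutrophil markers 1 rose with each treatment and of the 6 detected monocyte markers none passed.

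The 2 detected Tlr7 probes, both assigned to 1 transcript of this RNA sensor, gave opposite answers in blood. At A_55_P2050932 the level was 3.74 at the lowest, 3.97 at the median and 5.42 at the highest in control mice and 4.05, 4.36 and 5.44 in CUMS mice. In OVX mice it was 2.81, 2.99 and 3.49, below every control mouse. Over all probes, OVX and control mice did not overlap, in either direction, for 19.8%. In OVX+CUMS mice it was 3.11, 3.64 and 4.35. At A_55_P2129047 the level was -0.56, -0.46 and -0.14 in control mice, and -1.92, -1.04 and -0.44 after CUMS. It was -0.28, -0.12 and -0.04 after OVX and -0.93, -0.49 and 0.76 after both treatments. OVX mice were the lowest group at the first Tlr7 probe and the highest at the second, by their medians.

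The OVX effect in blood was -0.99 ± 0.19 (adjusted p = 0.00035) at Tlr7 probe A_55_P2050932 and 0.53 ± 0.15 (adjusted p = 0.0073) at A_55_P2129047. The CUMS effect was 0.45 ± 0.19 (adjusted p = 0.049) at the first Tlr7 probe and -0.43 ± 0.15 (adjusted p = 0.027) at the second. With the slide as a block the OVX effects of the Tlr7 probes were -0.63 ± 0.41 and 0.40 ± 0.36 (adjusted p = 0.82 and 0.88), and the CUMS effects were 0.63 ± 0.26 and -0.49 ± 0.23 (adjusted p = 0.048 and 0.071). Without CUMS mouse 2 and OVX+CUMS mouse 5 the CUMS effect at the first Tlr7 probe was 0.38 (adjusted p = 0.095). Of the 24 fits that left out 1 mouse, 16 lost the call of the CUMS effect at A_55_P2050932, and it held only without CUMS mouse 3, 4 or 6, OVX mouse 4 or 6, OVX+CUMS mouse 2 or 3, or control mouse 2. The CUMS call at A_55_P2129047 was lost without CUMS mouse 5 or OVX+CUMS mouse 4. Between mice of a group the 2 Tlr7 probes correlated at r = -0.24 in blood and 0.24 in mPFC.

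The probe A_55_P2050932 begins with a run of alternating T and C. The 10-letter motif CTCTCTCTCT was chosen after its neighbours had been seen, and 44 of the 55681 probes of 60 bases hold it as printed (0.079%), or 90 (0.162%) when its reverse complement is counted as well. The 3 genes most like Tlr7 at this probe in each tissue all came from this small set. In blood they were Map3k5 (r = 0.99), Wfdc13 (0.98) and 4733401D01Rik (0.98), and in mPFC Wfdc13 (0.97), 4733401D01Rik (0.96) and Erich5 (0.95), by deviations from group means over 24 arrays. The stretches of their probes that hold the motif, in capitals, are shown to let the shared run be seen beside the Tlr7 probe.
Tlr7 A_55_P2050932: tCTCTCTCTCTgatactgaactgtaccaga
Map3k5 A_55_P2079967: tagaatgtgtCTCTCTCTCTctgttcaggc
Wfdc13 A_55_P2089362: CTCTCTCTCTggatcagcttgctcatcatt
4733401D01Rik A_55_P2200628: tCTCTCTCTCTcataggaggtctcactgta
Erich5 A_55_P2144781: tgttggtgatCTCTCTCTCTttctttctct

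Over the other 42 probes with the motif that were detected in blood, the median correlation with Tlr7 probe A_55_P2050932 was 0.94, against -0.06 over the 20724 probes without it, and 16 of the 20 most similar probes held it. In mPFC the median was 0.79 over 43 probes, against 0.01 over 28314. The second Tlr7 probe, A_55_P2129047, had medians of -0.28 in blood and 0.12 in mPFC with the probes that hold the motif. The OVX effect of those other 42 probes in blood had a median of -0.99, with 41 lower and none higher, and their CUMS effect had a median of 0.40, with 16 higher and none lower, where 27.7% of all probes were lower with OVX and 19.1% higher with CUMS. Under the slide block these medians were -0.52, with none past the threshold, and 0.65, with 33 higher. Both medians without the block are within 1 SE of the values of Tlr7 probe A_55_P2050932. Its readings cannot be told apart in these data from those of probes for other genes that share the run, and the part of the motif was not tested. The genes most like the second Tlr7 probe were Adgre4, Clec4a1 and Serpinb10 in blood (r = 0.92, 0.92 and 0.91) and Mpeg1 in mPFC (0.81). The detected Tlr8 and Tlr9 probes, which do not hold the motif, correlated in blood with A_55_P2050932 at 0.56 each. With A_55_P2129047 they correlated at -0.34 and -0.23. Whether they read Tlr8 and Tlr9 alone was not tested.

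**Figure D4:**
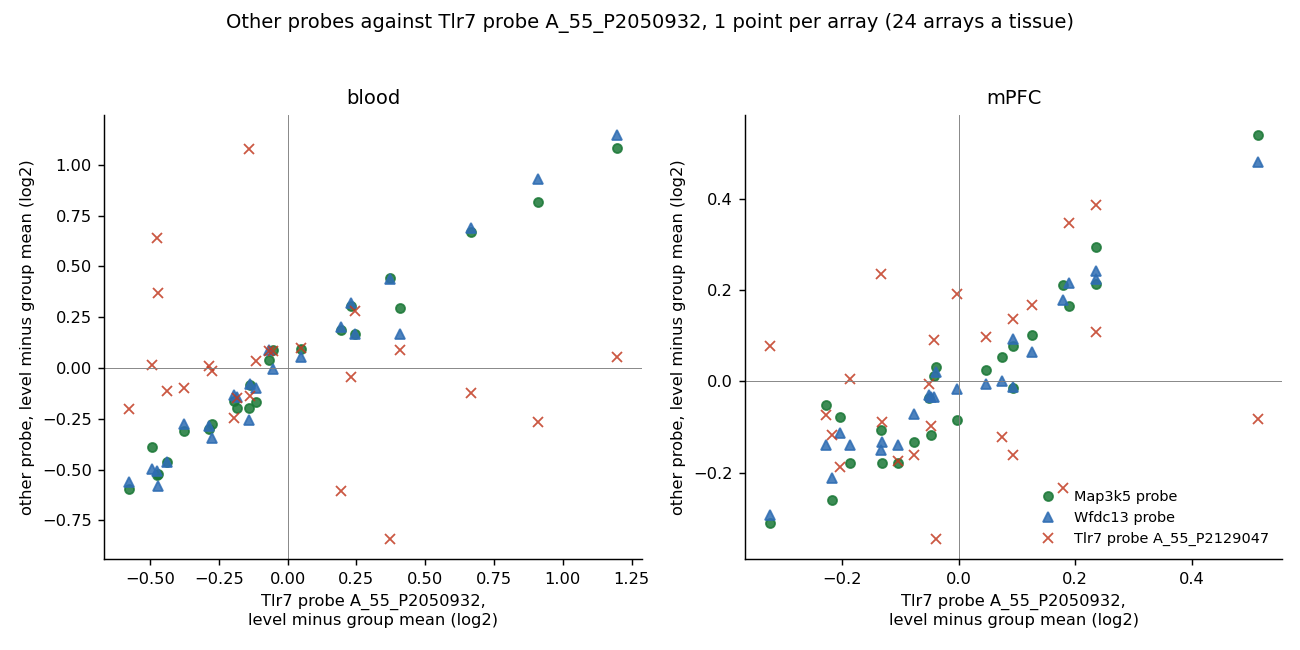
Deviation from the group mean (y axis, log2) of the Map3k5 and Wfdc13 probes and of the second Tlr7 probe against that of Tlr7 probe A_55_P2050932 (x axis, log2) for the 24 arrays of blood and of mPFC. The Map3k5 and Wfdc13 points lie along a line (r = 0.99 and 0.98 in blood) while the points of Tlr7 probe A_55_P2129047 scatter (r = -0.24 in blood and 0.24 in mPFC).

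In the mPFC fewer member probes were tested than in blood. For the OVX effect 2 of the 6 detected probes passed, both lower, where 30.9% of all 28358 probes passed. For the CUMS effect none of the 6 passed (4.19% of all probes, with 1 member at an unadjusted p under 0.05), and none for the interaction (4.49%, and 0 members unadjusted). For OVX+CUMS minus control 1 of 6 passed, where 33.4% of all probes did.

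The Tlr9 probe read lower in the mPFC of OVX mice. With group means removed, the genes most like it in mPFC were Gm10765, 4931428A05Rik and Ccdc114 (r = 0.93, 0.91 and 0.91). Whether this probe reads Tlr9 alone was not tested. Its level was 1.89 at the lowest, 1.95 at the median and 2.00 at the highest in control mice, and 1.64, 1.77 and 2.07 after CUMS. It was 1.64, 1.68 and 1.72 after OVX and 1.63, 1.73 and 1.84 after both treatments. Both ovariectomized groups lay entirely below control mice, while over all probes 21.0% for OVX and 17.2% for OVX+CUMS did not overlap control mice in either direction. The OVX effect on Tlr9 was -0.19 ± 0.04 (adjusted p = 0.0022) and the OVX+CUMS minus control difference -0.22 ± 0.06 (adjusted p = 0.0083). With the slide as a block these turned to 0.07 ± 0.06 and 0.17 ± 0.09 (adjusted p = 0.88 and 0.87). Within slide 2 the OVX minus CUMS difference, which mixes both treatments, was -0.03 ± 0.05.

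Sigirr in mPFC ran from -2.47 to -1.94 in control, from -2.28 to -1.76 in CUMS, from -2.37 to -1.88 in OVX and from -2.20 to -1.78 in OVX+CUMS mice, with all groups overlapping. Its CUMS effect was 0.18 ± 0.08 (adjusted p = 0.15) and 0.01 ± 0.10 with the slide as a block. The OVX+CUMS minus control difference of Sigirr was 0.27 ± 0.11 (adjusted p = 0.059), and it passed without CUMS mouse 2, OVX+CUMS mouse 1, control mouse 5 or control mouse 6 (adjusted p = 0.048, 0.030, 0.034 and 0.030). Its sign turned with the slide as a block, to -0.25 ± 0.23 (adjusted p = 0.96), and it was -0.01 under the spike-in alignment, which moved the median over all probes to -0.22. Tlr2 ran from -3.44 to -2.33 over all mPFC arrays, and neither its OVX effect (0.11 ± 0.08, adjusted p = 0.32) nor its CUMS effect (0.08 ± 0.08, adjusted p = 0.62) passed. Tlr3, the endosomal sensor of viral RNA and the only member detected in mPFC alone, ran from -4.09 to -2.00, with an OVX effect of 0.01 ± 0.18 (adjusted p = 0.98). The Tlr7 probe without the motif had an OVX effect of 0.10 ± 0.08 (adjusted p = 0.37) and the one with it -0.22 ± 0.08 (adjusted p = 0.039), which became 0.09 ± 0.17 with the slide as a block. That call was lost in 10 of the 24 fits that left out 1 mouse, those without CUMS mouse 2, OVX mouse 1, 3 or 5, OVX+CUMS mouse 3, 4 or 5, or control mouse 3, 5 or 6. In mPFC 8 of 10 microglia markers rose with OVX, where 19.1% of all probes did, with a list score from -0.14 to -0.01 in control and from -0.01 to 0.14 in OVX mice. Control and OVX mice shared no slide, and values with the slide as a block are not given for these markers.

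**Figure D5:**
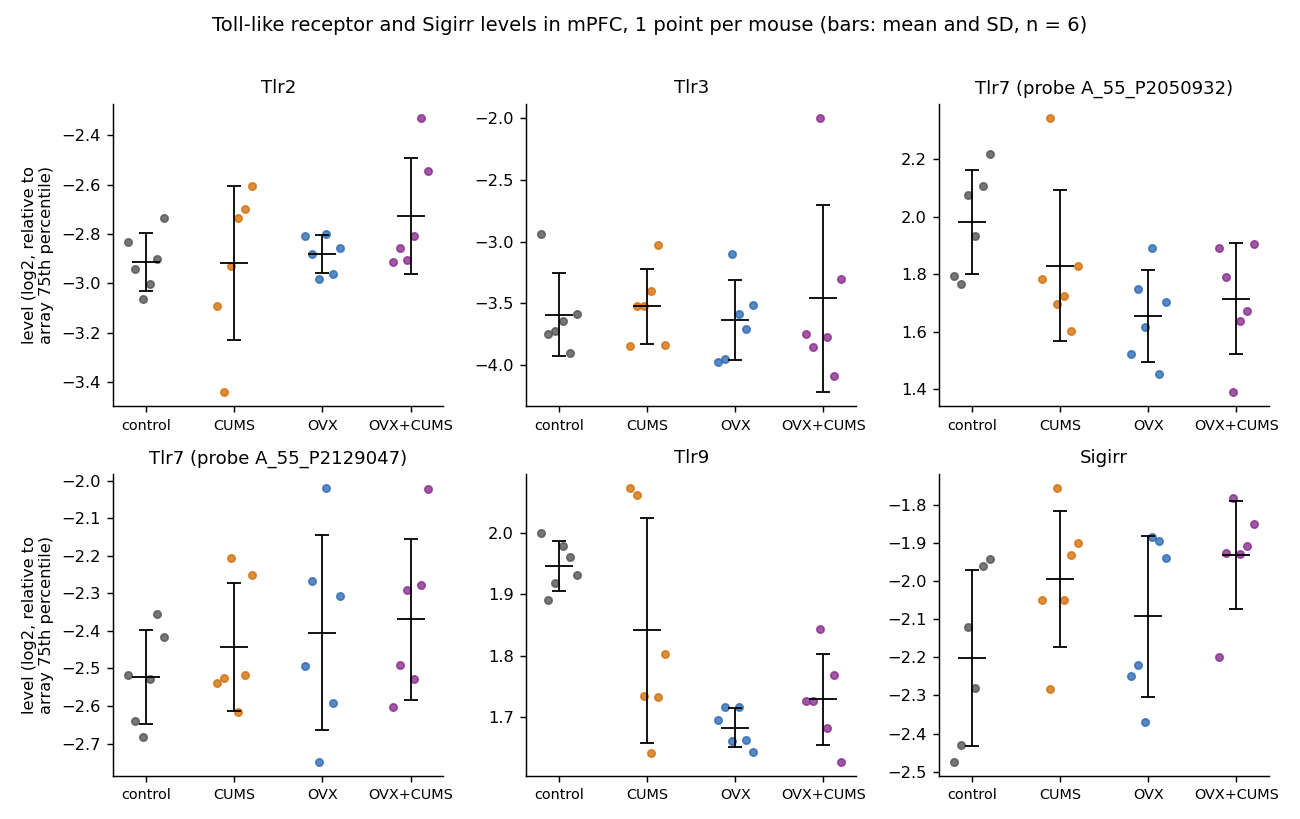
Levels in mPFC of the 6 detected member probes (y axis, log2 relative to the 75th percentile of the array, with its own scale in each panel) for each mouse of the 4 groups, with the mean and SD of 6 mice. Tlr9 lies between 1.89 and 2.00 in control mice and between 1.64 and 1.72 in OVX mice, while the groups overlap for Sigirr, Tlr2 and Tlr3.

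The CUMS effect on Sigirr differed between the tissues of the same mice. The blood minus mPFC difference in that effect was -0.68 ± 0.12 (adjusted p = 0.00061), and -0.53 ± 0.16 with the slide as a block (adjusted p = 0.025). Of the 5 member probes detected in both tissues 4 passed this test, where 50.4% of 17544 probes did. The others were Tlr9 (0.45 ± 0.10, adjusted p = 0.0017) and the 2 Tlr7 probes (0.50 ± 0.18 at A_55_P2050932 and -0.49 ± 0.16 at A_55_P2129047, adjusted p = 0.023 and 0.018), and none of these passed with the slide as a block. For the OVX effect 2 of 5 passed, the 2 Tlr7 probes, where 37.2% of probes did, and neither passed with the slide as a block. The call at A_55_P2129047 was also lost in 11 of the 24 fits that left out 1 mouse, those without CUMS mouse 2, 5 or 6, OVX mouse 3, 5 or 6, OVX+CUMS mouse 1 or 5, or control mouse 1, 4 or 5.

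In control mice all 10 member probes detected in either tissue differed between blood and mPFC, as did 91.8% of 31581 probes. On the scale set by each array's 75th percentile, 9 were higher in blood and Tlr3 was higher in mPFC (43.7% of all probes were higher in blood). The difference was 6.78 ± 0.10 for Tlr1, 4.24 ± 0.12 for Sigirr, 3.85 ± 0.09 for Tlr6, 2.83 ± 0.11 for Tlr2 and 2.51 ± 0.11 for Tlr9. Tlr1 stood well above background on 5 of the 6 control arrays of mPFC. Tlr5 and Tlr8 stood well above background on none. On this scale Tlr5 was therefore at least 17.7-fold and Tlr8 at least 62.8-fold higher in blood. These bounds, 4.14 and 5.97 in log2, hold for this scale only. Over all processing settings the difference ran from 2.70 to 5.88 for Tlr5 and from 3.52 to 7.54 for Tlr8. Tlr3 was well above background on none of the 6 control blood arrays, and with the higher background limit of blood no lower bound above 1 could be given. Under background correction by normexp the sign of the Tlr3 difference turned (0.97), and under the spike-in alignment those of the Tlr7 probes did (-0.08 and -0.22). That alignment moved the median difference over all probes from -0.21 to -2.53. On it the Tlr9 difference was 0.19 and no longer passed (adjusted p = 0.13 by limma). Those of Tlr1, Sigirr, Tlr6 and Tlr2 were 4.46, 1.92, 1.53 and 0.51.

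Of 51 other genes of Toll-like receptor signalling, 38 were detected in blood and 37 in mPFC, each read at its brightest detected probe. With CUMS 1 of the 38 rose and 20 fell in blood, with a median effect of -0.24, and with OVX 22 rose and 5 fell, with a median of 0.28. Over all probes 19.1% rose and 29.4% fell with CUMS, and 27.4% rose and 27.7% fell with OVX. In mPFC 12 of 37 rose and 1 fell with OVX, against 19.1% and 11.7% of all probes, and 1 rose with CUMS. None of these blood calls for OVX held with the slide as a block, since no probe on the array did.

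By role, the inhibitors that act beside Sigirr (Irak3, Tollip, Tnfaip3, Nfkbia, Cyld, Tnip1 and Il1rl1) were all detected in blood. With CUMS 4 of the 7 fell (29.4% of all probes did), and with OVX 6 rose (27.4% of all probes did). Cyld, a deubiquitinase, changed by -0.42 ± 0.11 with CUMS (adjusted p = 0.0046, and 0.011 with the slide as a block). Il1rl1, the interleukin-33 receptor, changed by 0.52 ± 0.16 with OVX (adjusted p = 0.0097), but by -0.20 with the slide as a block (adjusted p = 0.95). Among transcription factors 4 of 5 fell with CUMS, and with OVX 4 rose and 1 fell. Irf7, which drives interferon genes, fell by 0.84 with OVX (SE 0.19, adjusted p = 0.0012), and its effect was -0.08 with the slide as a block (adjusted p = 0.99). Nfkb1 rose by 0.52 ± 0.10 (adjusted p = 0.00034, and 0.77 with the block, at 0.48).

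Among kinases and ubiquitin ligases 7 of 12 detected genes fell with CUMS, and 5 rose and 2 fell with OVX in blood. Of all probes 29.4% fell with CUMS, and 27.4% rose and 27.7% fell with OVX. Tbk1, the kinase upstream of Irf3, changed by -0.51 ± 0.09 with CUMS (adjusted p = 0.00084, and 0.0092 with the slide as a block), and Tab1 by 0.50 ± 0.11 with OVX (adjusted p = 0.00079). All 4 genes of receptor trafficking rose with OVX and 2 fell with CUMS, the largest being Slc15a4 at 0.45 ± 0.12 and Hsp90b1 at 0.41 ± 0.13 with OVX (adjusted p = 0.0032 and 0.011). Of the adaptors Tirap (0.40 ± 0.14) and Ticam1 (0.35 ± 0.09) rose with OVX (adjusted p = 0.020 and 0.0042), and none of the 3 detected passed for CUMS, including Myd88 at -0.03 ± 0.21 (adjusted p = 0.92). The scavenger receptor Cd36 rose by 0.66 ± 0.17 with CUMS (adjusted p = 0.0046, and 0.0092 with the slide as a block), and Ly86 by 0.56 ± 0.11 with OVX (adjusted p = 0.00038). Tlr12 fell by 0.27 with CUMS (SE 0.09, adjusted p = 0.017), while Tlr11 was not detected. Of the interleukin-1 receptor family 3 of 8 were detected, with Il1rap at -0.41 ± 0.15 under OVX (adjusted p = 0.026) and Il18r1 at -0.33 ± 0.10 under CUMS (adjusted p = 0.010). Under the slide block Il1rap turned to 0.14 (adjusted p = 0.96) and Il18r1 no longer passed (adjusted p = 0.054). The block gave OVX effects of 0.24 for Ly86, 0.22 for Slc15a4, 0.05 for Hsp90b1, 0.21 for Tirap, 0.16 for Ticam1 and 0.39 for Tab1 in blood, none of which passed. The Il1rap call was also lost without OVX mouse 5 or 6 or OVX+CUMS mouse 3.

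In mPFC the pathway genes that passed were mostly higher with OVX. These included Cd14, the lipopolysaccharide co-receptor, at 0.29 ± 0.07 (adjusted p = 0.0023), Tab1 at 0.24 ± 0.04 (adjusted p = 0.00029), Tollip at 0.19 ± 0.03 (adjusted p = 0.00033) and Irf5 at 0.19 ± 0.07 (adjusted p = 0.034). Tirap (0.19 ± 0.06), Ticam1 (0.17 ± 0.04), Irak1 (0.17 ± 0.04), Unc93b1 (0.16 ± 0.06), Cyld (0.14 ± 0.05) and Cnpy3 (0.12 ± 0.03) also rose. Irf3 was the gene that rose with CUMS, by 0.18 ± 0.04 (adjusted p = 0.027, and not without CUMS mouse 5 or 6). Leaving out 1 mouse ended the OVX call of Cyld in 15 of 24 fits, of Irf5 in 10 and of Unc93b1 in 9. None of these passed with the slide as a block, and the OVX effects then ran from -0.03 for Cyld to 0.34 for Ticam1.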

How the data were processed

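Per the labels and the files, blood cells and mPFC of 24 mice were hybridized as Cy3-labelled RNA to 1-colour Agilent mouse arrays. The authors deposited scanner intensity values made with Feature Extraction 10.7.3.1, each array with 62976 spots, 3671 of them controls, and a table of normalized log2 values. After centring, the deposited log2 table equalled log2 of the processed intensity to within 0.001 for 100% of the 55249 probes with 1 spot. Spots of a probe (10 for Tlr2, 2 for Tlr4 probe A_66_P124806) were averaged, flagged outliers were left out, and each array was shifted so that its 75th percentile lay at 0. A probe was detected when positive, significant and well above background on all 24 arrays of a tissue, with signal over 50 on 2. Gene names are those of the files, and 26762 of 28390 RefSeq accessions matched RefSeq's mouse table (GRCm38.p6), which was used for names only.

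limma 3.58.1 in R 4.3.3 fitted the 4 groups of each tissue to all detected probes (20767 in blood, 28358 in mPFC), with Benjamini-Hochberg adjustment over them and a threshold of 0.05, following the study's 2-way design. Tissues were compared as differences within mice, since a label of each sample names the matching sample of the same individual. With group means removed, blood and mPFC of a mouse correlated at a median of 0.07, and 5 of 24 blood arrays correlated best with their own mouse. The fit was tested on simulated data. Members are given by their brightest detected probe with the others beside it, pathway genes by the 2 largest called changes per role, and similar genes by the highest correlation among probes with a gene symbol. Alternatives were normexp background, quantile, tested-probe and spike-in scaling, the deposited table, no filter, no moderation, the slide or replicate number as a block, within-slide differences and leaving out each mouse. The joint omission of CUMS mouse 2 and OVX+CUMS mouse 5, and the motif, were chosen after seeing the data. The members and gene lists were chosen with earlier results of these data known. The number of arrays limits the precision.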

Additional observations from a re-analysis of the deposited data

Results flagged for a closer look

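In 16 of 116 groups of 6 arrays tested (60 of member probes, 56 of marker lists), 1 array stood apart from the others of its group by Dixon's ratio. Chance flags about 1 in 20 such groups. In blood, OVX+CUMS mouse 5 stood apart for Tlr2 (2.82, the others -0.29 to 0.09), Tlr6 (1.57, the others -0.65 to -0.54), the neutrophil list (3.04), the monocyte list (1.84) and the T cell list (-0.65), and in mPFC for the neutrophil list (1.76). Control mouse 6 stood apart for Tlr6 in blood (-0.0044, the others -0.57 to -0.40).

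In mPFC, control mouse 1 stood apart for Tlr3 (-2.94, the others -3.90 to -3.58), the oligodendrocyte list (0.61) and the endothelium list (-0.43), and OVX+CUMS mouse 3 for Tlr3 (-2.00, the others -4.09 to -3.30). CUMS mouse 2 stood apart for Tlr7 probe A_55_P2050932 in mPFC (2.34, the others 1.60 to 1.83) and for the erythroid list in blood (1.01) and in mPFC (0.59). OVX+CUMS mouse 1 stood apart for Sigirr in mPFC (-2.20, the others -1.93 to -1.78), and control mouse 2 for the platelet list in blood (-1.06).

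Effects that differed between blood and mPFC of the same mice were the CUMS effects on Sigirr (-0.68), Tlr9 (0.45), Tlr7 probe A_55_P2050932 (0.50) and Tlr7 probe A_55_P2129047 (-0.49), and the OVX effects on Tlr7 probe A_55_P2050932 (-0.77) and A_55_P2129047 (0.43), each as blood minus mPFC.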

How the results depend on the processing

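The count of member probes that passed changed as follows. With the slide as a block it fell from 5 to 0 for the OVX effect in blood, from 2 to 0 for OVX in mPFC, from 1 to 0 for OVX+CUMS minus control in mPFC, from 4 to 1 for the CUMS effect and from 2 to 0 for the OVX effect in blood minus mPFC. No slide holds both control and OVX+CUMS mice, so these blocked fits rest on the CUMS and OVX mice that link slides. Within slides 1 and 3 the CUMS count in blood was 0. Within slide 2, where OVX is set against CUMS mice and both treatments mix, the OVX count in mPFC was 0. Without the detection filter, which tests more probes, counts were 3 for CUMS in blood, 1 for OVX in mPFC, and 2 and 1 for CUMS and OVX in blood minus mPFC. The spike-in alignment gave 3 for CUMS in blood, 1 for CUMS in mPFC, 2 for OVX+CUMS minus control in mPFC, and 2 and 4 for CUMS and OVX in blood minus mPFC. Normexp gave 1 for OVX+CUMS minus control in blood (Tlr9). For OVX+CUMS minus control in mPFC, scaling on tested probes gave 2, quantile normalization 3 and the replicate block 2. For OVX in blood minus mPFC, no moderation gave 1, as did treating the arrays of both tissues as separate samples, with no replicate block for the mouse.

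Among effects that passed, signs turned for Tlr9 under OVX in blood with normexp (0.018) and spike-in (0.092), and in mPFC with the slide block (0.068, and 0.17 for OVX+CUMS minus control). They also turned for Tlr7 probe A_55_P2050932 under OVX in mPFC with the slide block (0.091), and in blood minus mPFC for Tlr3 with normexp (0.97) and the Tlr7 probes with spike-in (-0.077 and -0.22). Of the named pathway genes, OVX effects turned with the slide block for Il1rap (0.14) and Il1rl1 (-0.20) in blood and Cyld (-0.033) in mPFC, with spike-in for Cnpy3 (-0.022) and Cyld (-0.00145) in mPFC, and within slide 2 for Cyld (-0.042) and Irak1 (-0.034) in mPFC. The OVX+CUMS minus control difference of Sigirr in mPFC, which had not passed, turned with the slide block (-0.25) and spike-in (-0.012). The cause was not tested.

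Leaving out 1 mouse gave counts of 4 to 6 for CUMS and 4 to 5 for OVX in blood, 0 to 1 for OVX+CUMS minus control in blood, 1 to 2 for OVX and 1 to 3 for OVX+CUMS minus control in mPFC, and 1 to 2 for OVX in blood minus mPFC. The count of 3 came without CUMS mouse 2, and counts of 2 without OVX+CUMS mouse 1 or control mouse 2, 5 or 6. The CUMS effect on Sigirr in blood passed under every other setting but the within-slide ones (-0.79 to -0.42), and in all 24 fits without 1 mouse. Within slides 1 and 3 it did not pass, and the slide 2 difference, which passed, mixes CUMS and OVX.

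Replicate numbers are shared by groups but mark no common animal. Same-numbered arrays of different groups correlated from -0.51 to 0.49 in blood and from -0.23 to 0.39 in mPFC, and 7 of 24 arrays in each tissue correlated best with their own number. The replicate block left counts of 5 for OVX and 6 for CUMS in blood.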
